A study of Mus musculus with 6 samples.

Results

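The 10 genes described here encode chains of the fibrillar collagens I, III and V, of collagen VI and of collagen XIV, the main collagens of the interstitial matrix of adipose tissue. They were taken by name (Col1a1, Col1a2, Col3a1, Col5a1, Col5a2, Col5a3, Col6a1, Col6a2, Col6a3 and Col14a1) from the 31053 genes counted, by membership of these collagens and not by a threshold on any value, though with earlier results of these data known. Their transcripts were followed in stromal vascular cells of the inguinal white adipose tissue (iWAT) of male C57BL/6 mice, from which CD45+ immune cells had been removed by sorting. Young mice were 9 weeks and aged mice 57 weeks of age, and all had been kept at 30 °C for 3 weeks before the temperature groups were formed. The TN (thermoneutral) groups stayed at 30 °C, the 3D cold groups spent the last 3 days at 6 °C, and the 14D cold groups spent 14 days at 6 °C. Each of the 6 combinations of age and temperature was sequenced as 1 library of droplet-based single-cell RNA, so that 3 young libraries were compared with 3 aged libraries and none of the 6 groups has a replicate of its own. C57BL/6J mice were supplied by Jackson Laboratories and C57BL/6JN mice by the National Institute of Aging, and which age came from which source is not given in the sources used here, so age and substrain cannot be told apart. The number of mice behind a library is not stated, although the study's methods for cell isolation say that animals were kept separate where pooling is not mentioned, and the p-values below measure the spread between libraries only.

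Collagens are triple helices of 3 chains. Collagen I is built from the products of Col1a1 and Col1a2, collagen III from Col3a1 alone, and collagen V from the Col5a1, Col5a2 and Col5a3 chains, which are laid into the same fibrils and limit their width. Collagen VI, from Col6a1, Col6a2 and Col6a3, forms beaded filaments around cells and is abundant around adipocytes, and collagen XIV, the product of Col14a1, lies on the surface of fibrils and links them. Fibroblasts make nearly all of these chains. In iWAT the fibroblastic adipocyte stem and progenitor cells (ASPCs) fall into Dpp4+ cells of the interstitium, Icam1+ preadipocytes and Cd142+ cells.

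In GRCm38, the build of the counts, the 10 genes lie on 7 chromosomes. Col3a1 (chr1:45311538-45349706, plus strand) and Col5a2 (chr1:45374321-45503282, minus strand) are neighbours 24.6 kb apart, and Col6a1 (chr10:76708792-76726168) and Col6a2 (chr10:76595762-76623630), both on the minus strand, are 85.2 kb apart. Col1a1 is at chr11:94936224-94953042 and Col1a2 at chr6:4504814-4541544, both on the plus strand. Col5a1 spans chr2:27886425-28039514 on the plus strand and Col5a3 chr9:20770050-20815067 on the minus strand. Col6a3 is at chr1:90765923-90843971 on the minus strand and Col14a1 at chr15:55307750-55520803 on the plus strand. Annotated genes on the opposite strand overlap Col5a1 (2 genes), Col5a3 (1) and Col14a1 (3).

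As the members share a pattern over the libraries, the 250 bases before the RefSeq start site (GRCm38.p6) of 4 of them, 1 for each of collagens I, III, V and VI, are printed 5′ to 3′. RefSeq held such a window for 7 of the 10 genes and 2 windows for Col6a2. Col1a1, Col5a2 and Col14a1 had no entry. Capitals mark matches on either strand to CCAAT (the CCAAT box), GGGCGG (the GC box) or TATAAA (the TATA box).
Col1a2, chr6:4505368-4505617, plus strand: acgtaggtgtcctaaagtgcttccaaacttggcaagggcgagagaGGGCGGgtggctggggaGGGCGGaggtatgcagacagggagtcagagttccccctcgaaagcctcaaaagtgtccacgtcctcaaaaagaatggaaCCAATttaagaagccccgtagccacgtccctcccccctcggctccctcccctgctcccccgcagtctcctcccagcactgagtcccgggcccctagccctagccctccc
Col3a1, chr1:45311288-45311537, plus strand: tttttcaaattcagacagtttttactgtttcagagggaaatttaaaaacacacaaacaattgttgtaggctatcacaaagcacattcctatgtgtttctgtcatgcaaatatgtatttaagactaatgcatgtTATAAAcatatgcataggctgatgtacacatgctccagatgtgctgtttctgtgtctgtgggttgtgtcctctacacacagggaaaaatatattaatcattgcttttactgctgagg
Col5a1, chr2:27886175-27886424, plus strand: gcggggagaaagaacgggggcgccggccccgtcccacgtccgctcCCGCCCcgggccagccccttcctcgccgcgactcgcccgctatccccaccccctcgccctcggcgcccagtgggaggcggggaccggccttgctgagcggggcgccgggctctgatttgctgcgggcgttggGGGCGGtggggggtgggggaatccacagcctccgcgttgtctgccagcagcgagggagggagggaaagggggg
Col6a1, chr10:76726045-76726294, minus strand: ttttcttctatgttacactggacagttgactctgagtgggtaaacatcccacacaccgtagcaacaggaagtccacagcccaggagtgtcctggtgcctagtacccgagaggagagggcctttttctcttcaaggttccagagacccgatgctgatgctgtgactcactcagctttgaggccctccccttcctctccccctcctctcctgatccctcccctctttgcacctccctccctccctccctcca
By these letters the Col1a2 and Col5a1 windows shared the GC box, and no motif was in all 4 windows. The Col1a2 window held a CCAAT box 109 bases and GC boxes 188 and 205 bases before the start. The Col5a1 window held GC boxes 73 and 205 bases before it. The Col3a1 window held a TATA box 117 bases before the start, and the Col6a1 window held none of the 3 motifs. Over the 8 windows of the 7 genes, CCAAT was present in 2, the GC box in 5 and the TATA box in 1, beside 33.8%, 32.7% and 12.4% of 32851 mouse promoters of the same length. GC content ranged from 35.2% in Col3a1 to 76.4% in Col5a1, around a median of 52.4% for all windows. A match says only that the letters are present.

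The libraries held 52068837 to 88508349 unique molecular identifiers (UMIs). A UMI tags a captured molecule whatever the transcript's length, so that levels of different genes count molecules. Of 68103 barcodes, 57326 were kept as cells, and 44387 of these were ASPCs. The aged 14D cold library stood apart, with a median of 2588 UMIs per barcode and 38.2% of barcodes under 2000 UMIs, against 7.04% to 11.7% in the other libraries, and results on age are therefore also given without it. Pairs of libraries shared 30 to 44 barcode sequences. Cells were clustered without the collagen and marker genes, and clusters were named from 10 markers each, so that the names below stand for cells that resemble these types: 21322 Dpp4+ fibroblasts, 18951 Icam1+ preadipocytes, 4114 Cd142+ fibroblasts, 4001 endothelial cells, 1382 smooth muscle cells and pericytes (SMC/pericytes), 457 Schwann cells and 420 immune cells. Levels within a class are given as UPM, the per-million value of a gene's UMIs among all UMIs of the class in a library. The summed Dpp4+ markers held 7539 to 10104 UPM in Dpp4+ fibroblasts and 313 to 689 in Icam1+ preadipocytes, whose own markers held 6711 to 7881. The Icam1+ list was not particular to these cells, with 40680 to 64966 UPM in endothelial cells, which were named from their own list. Cluster 1, with 9714 of the Icam1+ cells, was named on 5 of 10 markers, just the 50% needed. A cluster with like leading genes was left unnamed at resolution 1 (7590 cells) and under fixed cell limits (7103 cells). A cluster of 5338 cells with SMC genes was left unnamed, because over 50% of its cells came from the aged 14D cold library, where it made up 37.3% of cells against 1.19% to 4.34% elsewhere.

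Levels across the cell classes were compared first. Each ASPC class had its own mixture of chains. Collagen VI and Col5a3 transcripts were most abundant in Icam1+ preadipocytes and Col14a1 transcripts in Dpp4+ fibroblasts, while the order of Icam1+ and Cd142+ cells for collagen I turned between the ages. The 10 genes together had 50811, 35350 and 45626 UPM in Icam1+ preadipocytes of the young TN, 3D cold and 14D cold libraries and 36044, 22705 and 34435 UPM in the aged libraries. Cd142+ fibroblasts had 48781, 30908 and 51904 UPM in young and 19640, 9395 and 15400 UPM in aged libraries, so that these classes lay close together in young and apart in aged libraries. Dpp4+ fibroblasts were below both in every library, with 31308, 19432 and 29845 UPM against 12809, 6515 and 9968 UPM. The cluster named Schwann cells was led by Spp1, Sfrp5 and Apod beside Schwann cell genes and had 139 rather than 457 cells at resolution 1, so the classes outside the ASPCs are not ranked here. Col3a1 had a median of 13692 UPM over the 6 libraries in Icam1+ preadipocytes (range 7938 to 21515), 7560 in Cd142+ fibroblasts (2259 to 18307) and 4207 in Dpp4+ fibroblasts (1175 to 10533). It was the most abundant of the 10 in Icam1+ preadipocytes, where it made up 35.0% to 42.3% of the UMIs of the set. In Dpp4+ fibroblasts Col1a2 held the larger median share, at 35.7% of the set against 26.0% for Col3a1.

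The collagen VI chains separated the classes more clearly. Col6a3, whose chain is the longest of the collagen VI chains, had 1762 to 2935 UPM in Icam1+ preadipocytes, 334 to 880 in Cd142+ fibroblasts and 242 to 631 in Dpp4+ fibroblasts, and none of these ranges of Icam1+ cells overlapped the others. Within a library the Icam1+ level was 2.94 to 5.89 times the Cd142+ level, with a median of 4.18. Col6a1 and Col6a2 were likewise higher in Icam1+ preadipocytes than in Cd142+ fibroblasts in 6 of 6 libraries, by a median of 2.34 and 3.20 times. Among the collagen V chains Col5a3 showed the widest separation, with 1270 to 1670 UPM in Icam1+ preadipocytes and 57.6 to 230 in Dpp4+ fibroblasts. Its Dpp4+ level was 0.0454 to 0.144 times its Icam1+ level. Col5a1 and Col5a2 were also highest in Icam1+ preadipocytes in 6 of 6 libraries, with medians of 850 and 970 UPM.

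Col14a1 ran the other way. It had 373 to 591 UPM in Dpp4+ fibroblasts, 84.3 to 225 in Cd142+ fibroblasts and 17.8 to 85.3 in Icam1+ preadipocytes, with no overlap between Dpp4+ fibroblasts and either of the others. Within a library the Dpp4+ level was 6.83 to 25.5 times the Icam1+ level, with a median of 12.1. For collagen I the order depended on age. Col1a1 had 6318, 4312 and 5716 UPM in young Icam1+ preadipocytes and 10807, 6884 and 11240 UPM in young Cd142+ fibroblasts, which were higher in 3 of 3 libraries. In aged libraries Icam1+ preadipocytes were the higher in 3 of 3, with 3600, 2279 and 4046 UPM against 3287, 1548 and 3068 UPM, and Col1a2 showed the same orders. These orders are a description of clusters, with no test.

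**Figure D1:**
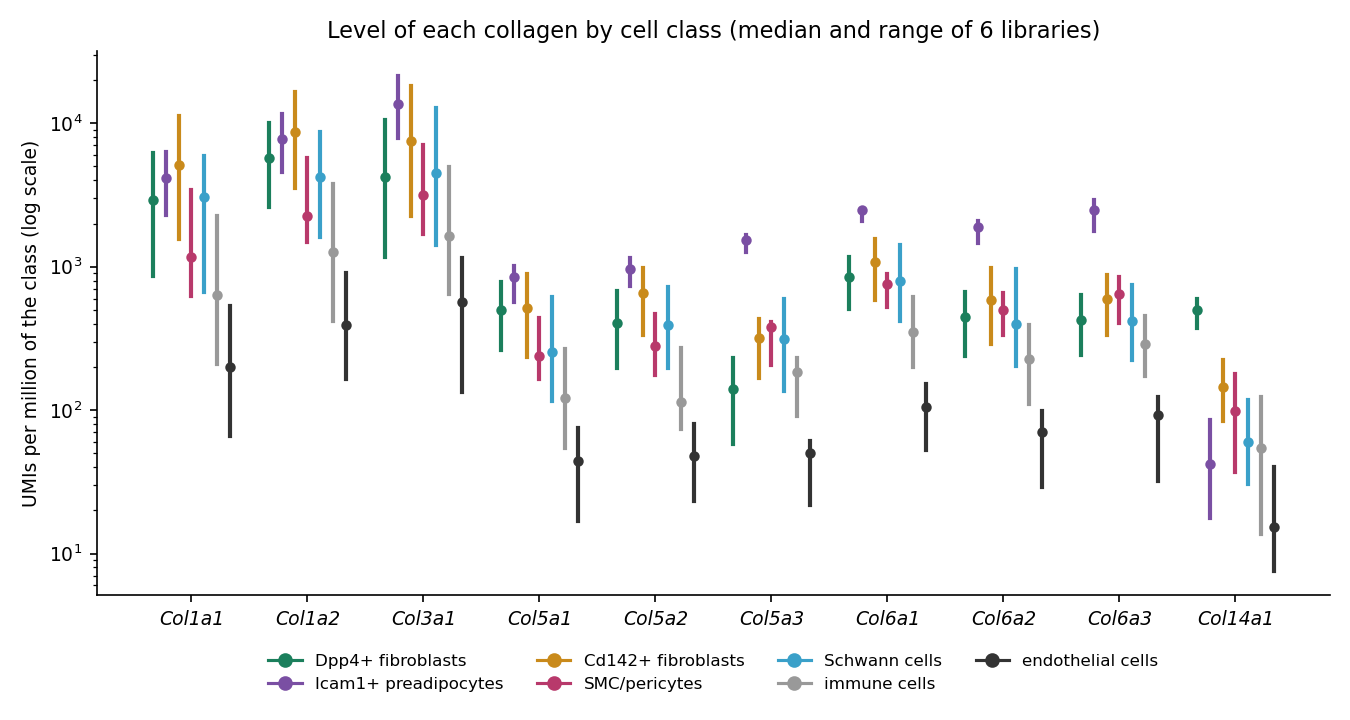
Level of each of the 10 collagens in 7 cell classes, in UPM (the per-million share of the UMIs of the class) on a log axis. Points are medians and bars the range of the 6 libraries. Icam1+ preadipocytes stand above all other classes for Col5a3, Col6a1, Col6a2 and Col6a3, and Dpp4+ fibroblasts stand above all others for Col14a1.

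At the level of cells, Col1a2 transcripts were found in nearly every ASPC. With each cell thinned to 2000 UMIs and cells below that left out (53037 of 57326 remained), Col1a2 was detected in 99.1% of Dpp4+ fibroblasts (exact binomial 95% interval 98.9% to 99.2%), 99.8% of Icam1+ preadipocytes and 98.7% of Cd142+ fibroblasts (at least 99.8% in each without thinning). In endothelial cells, which make basement membrane rather than fibrillar collagen, the share was 19.4% (18.1% to 20.7%), and 29.1% without thinning. Median depths were 7662, 8276 and 6033 UMIs per cell in the ASPC classes and 3410 in endothelial cells. Droplets also capture free RNA from other cells, and the endothelial share is given as the level to compare with; its source was not tested. Col14a1 was detected in 56.3% of Dpp4+ fibroblasts (55.6% to 57.0%), 6.73% of Icam1+ preadipocytes and 1.44% of endothelial cells. Intervals cover counting error only.

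The age comparison asked how the transcripts of the 10 chains differed between aged and young cells of 1 class. In Dpp4+ and Cd142+ fibroblasts all 10 were lower in aged libraries, with the largest differences in collagens I and III. In Icam1+ preadipocytes 5 of 10 were lower (Col1a1, Col1a2, Col3a1, Col5a1 and Col14a1), and the collagen VI chains did not pass the test. No member was higher in aged cells of any class. Levels are given below as CPM, the same per-million values after scaling of the libraries by edgeR's TMM factors. Fold changes are aged over young, fitted beside temperature by the quasi-likelihood method of edgeR, with Benjamini-Hochberg adjustment over all genes. Sums of a class cannot distinguish fewer cells that transcribe a gene from less RNA per cell. Counts of members under alternative settings, here and below, come without the share of all genes called in that setting. They therefore cannot tell a change in these genes from a change in calls of all genes.

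Col3a1 in Dpp4+ fibroblasts was counted at 10624, 5046 and 10028 CPM in the young TN, 3D cold and 14D cold libraries, and at 3257, 1165 and 2317 CPM in the aged libraries in the same order. Every aged library lay below every young library. The difference was -1.98 ± 0.10 on the log2 scale (SE, n = 3 libraries per age), 3.94-fold lower, with an adjusted p of 7.08e-07. Col1a1 had 6231, 3705 and 6083 CPM in young and 2026, 857 and 1526 CPM in aged Dpp4+ fibroblasts (log2 fold change -1.91 ± 0.10, adjusted p = 8.64e-07), again without overlap. Its partner Col1a2 differed less, with 10127, 6628 and 10154 CPM against 4763, 2575 and 3592 CPM (-1.32 ± 0.10, adjusted p = 8.05e-06). In Cd142+ fibroblasts, Col3a1 had 17277, 9050 and 18385 CPM in young and 5865, 2300 and 4143 CPM in aged libraries (-1.89 ± 0.13, adjusted p = 1.18e-07). Col1a1 fell there by 1.90 ± 0.11 and Col1a2 by 1.39 ± 0.12 on the log2 scale, and neither overlapped between the ages.

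In Icam1+ preadipocytes the same genes differed by smaller amounts. Col3a1 had 21472, 13038 and 18436 CPM in young and 13818, 8126 and 13516 CPM in aged libraries, and the young 3D cold library lay below the aged TN and 14D cold libraries. The log2 fold change was -0.59 ± 0.14 (adjusted p = 0.0220). Col1a1, with 6306, 4271 and 5681 CPM against 3541, 2333 and 4101 CPM, did not overlap (-0.73 ± 0.12, adjusted p = 0.00415). Col1a2 had a log2 fold change of -0.57 ± 0.12 (adjusted p = 0.0138). Without the aged 14D cold library, Col1a2 and Col3a1 no longer passed in this class (adjusted p = 0.150 and 0.193).

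The collagen V chains, which set fibril width, followed the same division. In Dpp4+ fibroblasts Col5a1 had 756, 607 and 814 CPM in young and 377, 261 and 333 CPM in aged libraries, without overlap (log2 fold change -1.17 ± 0.07, adjusted p = 1.55e-06). Col5a2 changed by -1.21 ± 0.07 there and Col5a3 by -1.01 ± 0.09, the latter with overlap. In Cd142+ fibroblasts the 3 chains changed by -1.15 ± 0.10, -1.04 ± 0.10 and -0.77 ± 0.13. In Icam1+ preadipocytes Col5a1 fell by 0.42 ± 0.09 on the log2 scale (adjusted p = 0.0125), while Col5a2 had -0.25 ± 0.08 (adjusted p = 0.0667) and Col5a3 -0.12 ± 0.10 (adjusted p = 0.480). Col5a3 in Icam1+ preadipocytes had 1595, 1655 and 1483 CPM in young and 1614, 1300 and 1463 CPM in aged libraries, and the ages overlapped.

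The collagen VI chains passed the test in Dpp4+ and Cd142+ fibroblasts and not in Icam1+ preadipocytes. Col6a1 in Dpp4+ fibroblasts had 1112, 993 and 1212 CPM in young and 684, 500 and 592 CPM in aged libraries (log2 fold change -0.91 ± 0.08, adjusted p = 2.14e-05). In Icam1+ preadipocytes it had 2467, 2465 and 2499 CPM in young and 2439, 2124 and 2405 CPM in aged libraries. These values did not overlap, but they lay close together, and the log2 fold change of -0.10 ± 0.10 did not pass (adjusted p = 0.558). Col6a2 and Col6a3 fell by 0.94 ± 0.08 and 1.11 ± 0.07 in Dpp4+ fibroblasts and by 1.00 ± 0.10 and 0.85 ± 0.12 in Cd142+ fibroblasts. In Icam1+ preadipocytes they had -0.18 ± 0.09 and -0.30 ± 0.10 (adjusted p = 0.238 and 0.0733).

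Col14a1, the fibril-associated chain, departed from the rest. In Dpp4+ fibroblasts, where it was highest, it had 515, 470 and 615 CPM in young and 461, 370 and 537 CPM in aged libraries, with overlap, and a log2 fold change of -0.23 ± 0.06 (adjusted p = 0.0247), which passed in 15 of 19 alternative settings. In Icam1+ preadipocytes, the lowest of the 3 ASPC classes, it had 74.6, 42.0 and 84.8 CPM in young and 17.8, 18.3 and 42.8 CPM in aged libraries. Its median over the libraries was 42.4 UPM there and 54.7 UPM in immune cells, and how much of it comes from the preadipocytes themselves was not tested. The aged 14D cold and young 3D cold libraries overlapped there, and the log2 fold change was -1.42 ± 0.17 (adjusted p = 0.000720). In Cd142+ fibroblasts it fell by 0.92 ± 0.09, without overlap.

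**Figure D2:**
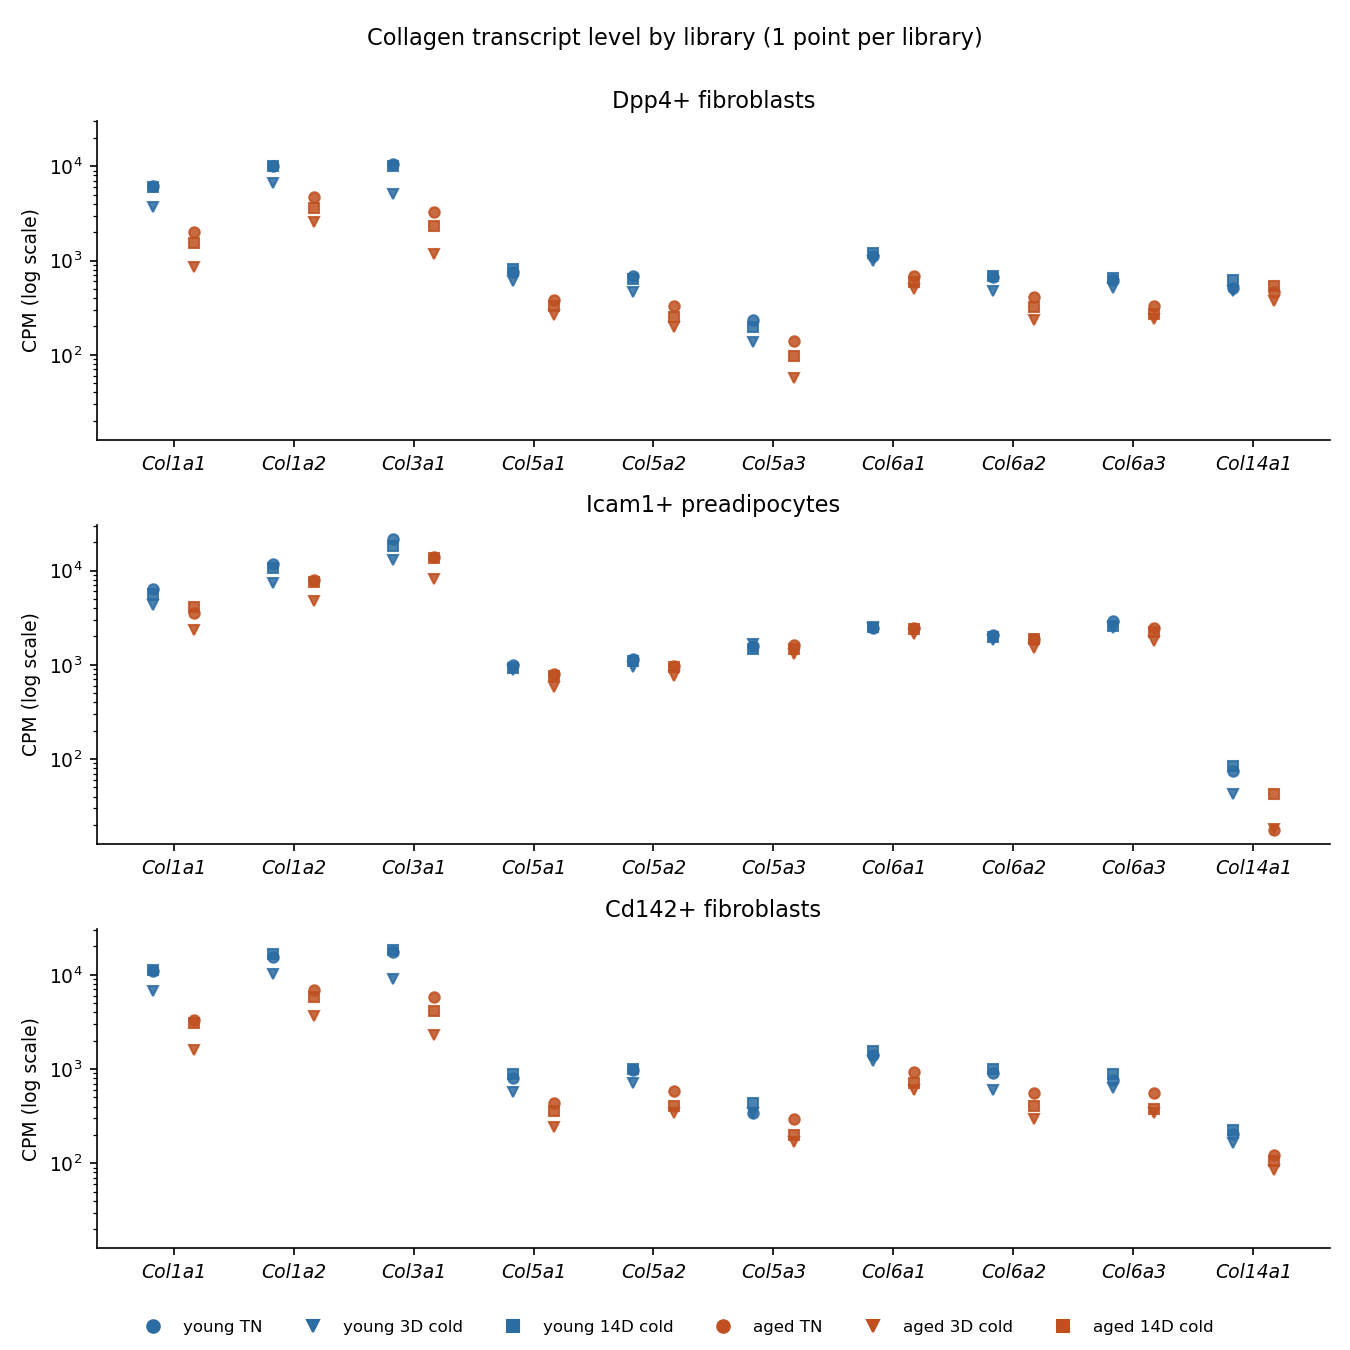
CPM of each collagen in the 3 ASPC classes on a log axis, with 1 point per library, young in blue and aged in orange, and the marker shape giving the temperature. Aged points lie below young points for all 10 genes in Cd142+ fibroblasts and for 8 of 10 in Dpp4+ fibroblasts, while the collagen VI points of Icam1+ preadipocytes lie close together.

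**Figure D3:**
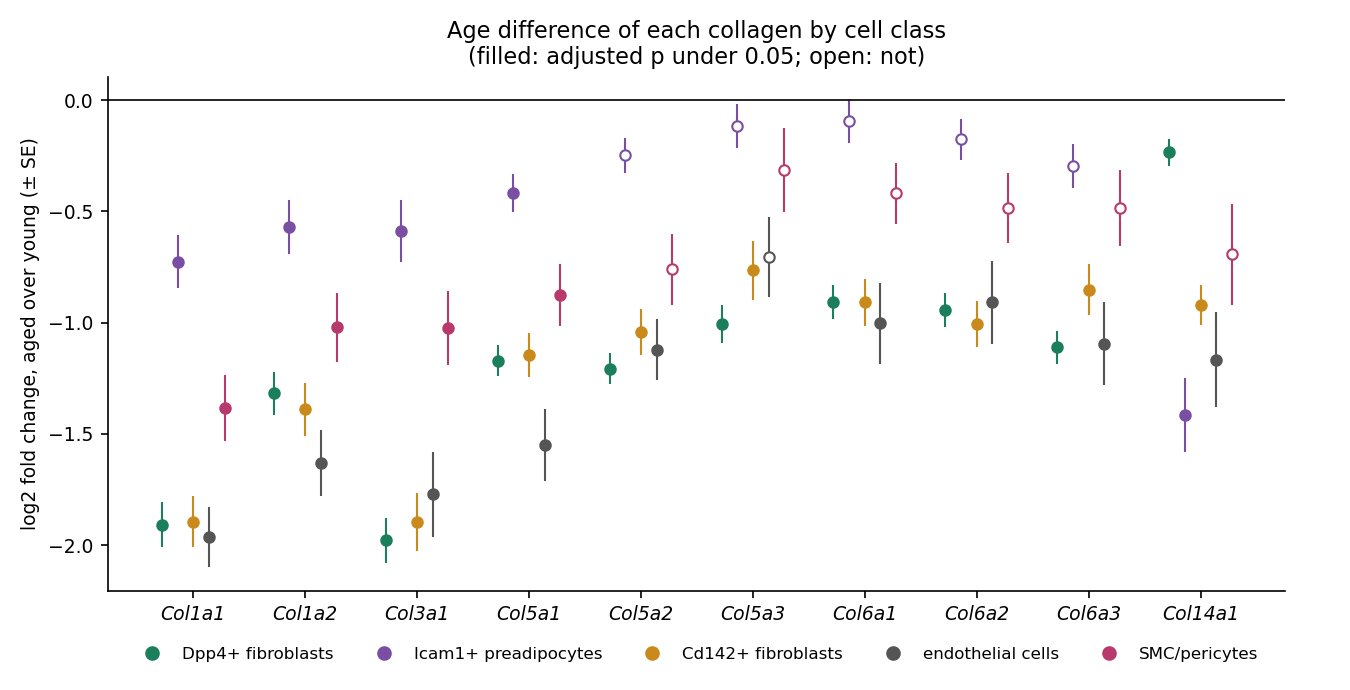
Log2 fold change of aged over young libraries for each collagen in 5 cell classes, with the standard error from edgeR's quasi-likelihood fit. Filled points passed an adjusted p of 0.05 and open points did not. Dpp4+ and Cd142+ fibroblasts are filled for all 10 genes, and Icam1+ preadipocytes lie nearer to 0 for all genes but Col14a1.

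Over the set, the median log2 fold change was -1.14 for Dpp4+, -0.36 for Icam1+ and -1.02 for Cd142+ cells, where all genes tested had medians between -0.00323 and 0.00492. Among all genes, 8.93%, 6.79% and 5.52% were called lower in aged cells of these classes, against 10, 5 and 10 of the 10 members. Aged libraries lay below young libraries without overlap for 8, 3 and 10 members, and for 12.1%, 11.6% and 11% of all genes tested. Aged was lower than young at each of the 3 temperatures for 10, 9 and 10 members, a description without the share of all genes. Without the aged 14D cold library, 10, 3 and 10 members passed. The Icam1+ count was also 3 without the young TN, the young 14D cold or the aged TN library. Leaving out either age at a temperature leaves the ages compared at the same remaining temperatures, so these counts are not separate checks. The 10 Dpp4+ markers themselves summed to 8606 to 10104 UPM in young and 7539 to 8006 in aged Dpp4+ fibroblasts. Markers of endothelial cells were low in the ASPC sums but higher in aged libraries: in Dpp4+ fibroblasts the 10 markers summed to 10.2 to 13.8 UPM in young and 14.6 to 35.4 in aged libraries. Immune markers summed to 8.47 to 17.1 and 16.2 to 16.6, and adipocyte markers to 4.81 to 10.5 and 12.6 to 20.9. In Cd142+ fibroblasts the Icam1+ markers summed to 2928 to 3056 UPM in young and 1906 to 2395 in aged libraries, and endothelial markers to 11.7 to 13.4 and 13.5 to 58.5. Their part in the result was not tested.

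The shift was present across the cells of a class. Cells under 2000 UMIs were left out, 361 Dpp4+, 64 Icam1+ and 92 Cd142+ cells in the aged 14D cold library, 18, 9 and 23 in aged TN and 0 in the others. At 2000 UMIs per cell, the median Dpp4+ fibroblast held 56, 35 and 52 UMIs of the 10 collagens in the young TN, 3D cold and 14D cold libraries and 21, 11 and 17 in the aged libraries. The 90th percentile of aged Dpp4+ cells, at 43, 22 and 35, lay below the young medians at the same temperature. Icam1+ preadipocytes held medians of 99, 66 and 85 against 67, 42 and 62, and Cd142+ fibroblasts 91, 55 and 92 against 29, 12 and 26. Summed over the class, the set made up 3.13%, 1.94% and 2.98% of all UMIs of young Dpp4+ fibroblasts and 1.28%, 0.651% and 0.997% of aged ones. In Cd142+ fibroblasts the shares were 4.88%, 3.09% and 5.19% against 1.964%, 0.939% and 1.54%, and in Icam1+ preadipocytes 5.08%, 3.54% and 4.56% against 3.60%, 2.27% and 3.44%. The ages did not overlap in Dpp4+ and Cd142+ fibroblasts (two-sided exact permutation p = 0.1 each, the smallest that 3 against 3 libraries allow, 0.125 after adjustment over 5 classes), and overlapped in Icam1+ preadipocytes (exact p = 0.2, adjusted 0.2).

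**Figure D4:**
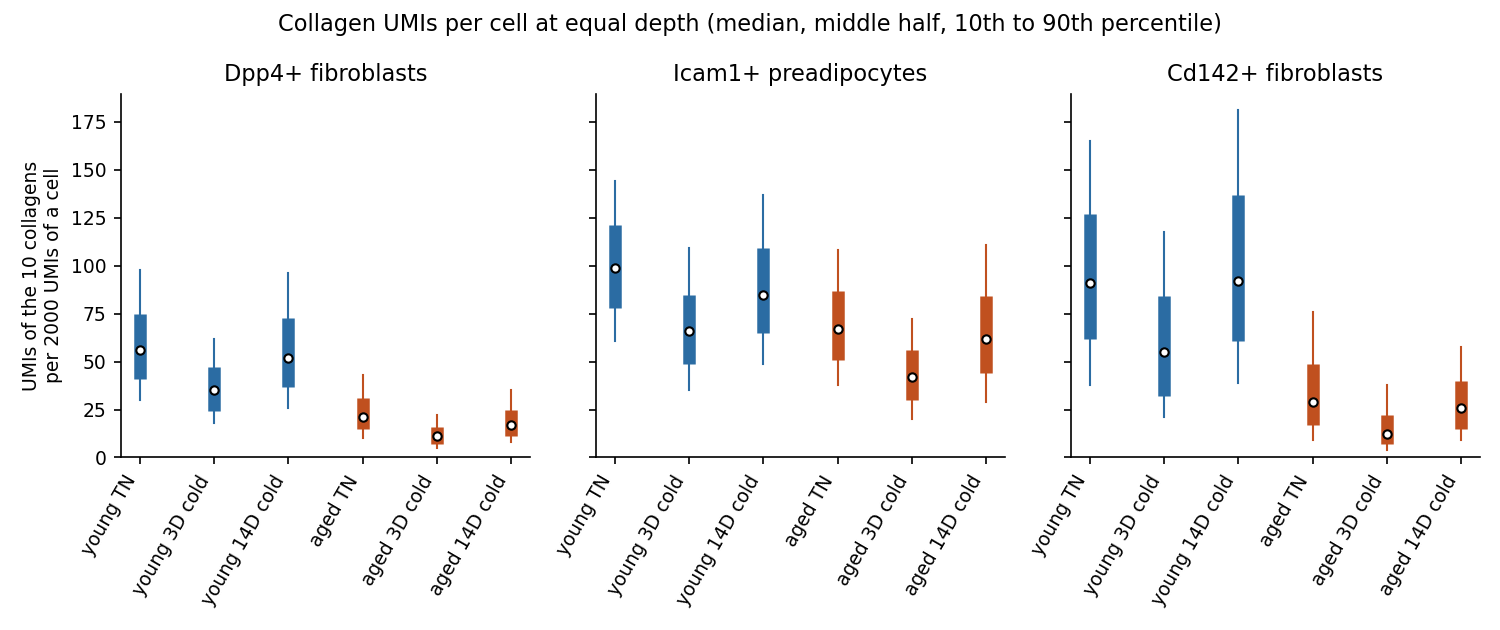
UMIs of the 10 collagens per cell after thinning to 2000 UMIs, without cells of fewer UMIs, in 3 ASPC classes and 6 libraries. Points are medians over cells, thick bars run from the 25th to the 75th and thin bars from the 10th to the 90th percentile. In Dpp4+ fibroblasts the medians are 35 to 56 in young and 11 to 21 in aged libraries.

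The makeup of the classes also moved between libraries. Dpp4+ fibroblasts joined clusters 0, 3 and 14, and cluster 3, led by Cxcl13 and Sfrp2, was 4.87% of cells in the aged TN library and 9.92% to 20.8% elsewhere. Fitted on the cells of cluster 0 alone, Col3a1 changed by -1.80 ± 0.08 and Col6a1 by -0.85 ± 0.07 on the log2 scale. In cluster 3 they changed by -2.19 ± 0.14 and -0.92 ± 0.09. Col14a1 had the smallest fall of the members in both, at -0.29 ± 0.06 and -0.36 ± 0.07. Icam1+ preadipocytes joined clusters 1 and 2, and cluster 2 was the larger in the aged TN library only (25.5% against 16.7% of its cells). In cluster 1, Col3a1 changed by -0.68 ± 0.11 and Col6a1 had -0.13 ± 0.09 (adjusted p = 0.387). In cluster 2, Col3a1 changed by -0.47 ± 0.14 and Col6a1 had -0.06 ± 0.09 (adjusted p = 0.735).

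Whether the age difference itself differed between classes was tested on 12 sums, with the library as a block. Between Dpp4+ fibroblasts and Icam1+ preadipocytes it differed for 9 of 10 members, while 2.58% of all genes passed. For 8 the fall was smaller in Icam1+ preadipocytes, by 1.40 ± 0.20 for Col3a1 (adjusted p = 0.00636), 1.20 ± 0.17 for Col1a1 (adjusted p = 0.00787), 0.83 ± 0.11 for Col6a1 (adjusted p = 0.00524) and 0.76 ± 0.12 for Col1a2 (adjusted p = 0.0115) on the log2 scale. Col14a1 went the other way, with a difference of -1.17 ± 0.25 (adjusted p = 0.0429), a larger fall in Icam1+ preadipocytes, where it had 17.8 to 84.8 CPM. This difference passed in only 6 of 12 alternative settings, and the low Icam1+ level of Col14a1 has the limit given above. Col5a3 had a difference of 0.90 ± 0.26 (adjusted p = 0.109). Without the young 14D cold library 5 members passed.

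Between Icam1+ preadipocytes and Cd142+ fibroblasts, 9 members differed, each with a larger fall in Cd142+ fibroblasts, while 1.64% of all genes passed. The difference was -1.30 ± 0.14 for Col3a1 (adjusted p = 0.000381) and -0.80 ± 0.11 for Col6a1 (adjusted p = 0.00283). Col14a1 had 0.54 ± 0.25 (adjusted p = 0.408). Without the young 14D cold or the aged 3D cold library 5 members passed, and with cells gated singly on marker UMIs in place of clusters 3 passed. Between Dpp4+ and Cd142+ fibroblasts only Col14a1 differed (-0.67 ± 0.11, adjusted p = 0.00201), where 1.79% of all genes passed. The other 9 had differences between -0.06 and 0.27, and with single-cell gates 5 members passed.

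Summed over the set, medians over the libraries were 1608 UPM in endothelial cells and 9442 in SMC/pericytes, against 16120 in Dpp4+ fibroblasts. Single members differed from this order. SMC/pericytes had medians of 377 UPM for Col5a3 and 648 for Col6a3, where Cd142+ fibroblasts had 317 and 600 and Dpp4+ fibroblasts 140 and 427. In endothelial cells Col3a1 had 972, 674 and 1142 CPM in young and 464, 139 and 276 CPM in aged libraries, with no overlap (log2 fold change -1.77 ± 0.19, adjusted p = 0.00313). There 9 of 10 members were called lower (not Col5a3), beside 1.71% of all genes, and 9 members did not overlap, beside 10.2%. Yet the median endothelial cell held 0 or 1 UMI of the set per 2000, and the 90th percentile 1 to 4. Markers of Dpp4+ fibroblasts, all 10 detected, summed in endothelial cells to 778 to 1117 UPM in young and 578 to 716 in aged libraries. At TN, 3D cold and 14D cold these sums were 831, 778 and 1117 UPM in young and 578, 704 and 716 UPM in aged libraries. Markers of SMC/pericytes (402 to 537 against 273 to 351 UPM) and of lymphatic endothelial cells (211 to 289 against 81.4 to 121 UPM) were also lower in aged libraries. Other lists were not lower: Cd142+ markers had 473 to 550 against 471 to 636 UPM, and adipocyte markers 228 to 586 against 489 to 1256. Icam1+ markers had 40680 to 49149 against 46927 to 64966 UPM. As this list had only 6711 to 7881 UPM in Icam1+ preadipocytes, it cannot trace preadipocyte RNA in endothelial cells. Their part in the result was not tested. Without cells of high doublet score 4 members passed, without the aged 14D cold or the young 14D cold library 5, and with cells gated singly 2.

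In SMC/pericytes 4 members were called lower (Col1a1, Col1a2, Col3a1 and Col5a1), beside 0.114% of all genes. A partly different 4 did not overlap (Col1a1, Col5a1, Col5a2 and Col6a1), beside 7.52%. Col1a1 had 3544, 1272 and 1868 CPM in young and 1049, 639 and 712 CPM in aged libraries (log2 fold change -1.38 ± 0.15, adjusted p = 0.00786), while the collagen VI chains had -0.42 to -0.48 and did not pass. The young TN library was the highest. Markers of Dpp4+ fibroblasts summed to 1674 to 2893 UPM in young and 1062 to 1987 in aged libraries. Those of Icam1+ preadipocytes summed to 7913 to 21711 and 12279 to 27016, and those of Cd142+ fibroblasts to 712 to 1109 and 832 to 1157. Each of these lists overlapped between the ages. In cluster 11, 1 of the 2 clusters joined, 41.9% of cells had a high doublet score. The part of such cells and of these markers was not tested. Counts were 1 without the aged 14D cold library, 2 without young 14D cold, 8 without young TN and 8 without aged TN. Without cells of high doublet score 6 members passed.

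The temperature comparison asked how levels differed between TN, 3D cold and 14D cold with age as a term in the fit. In Dpp4+ and Cd142+ fibroblasts the 3D cold library was lowest for all 10 members at both ages, and in Icam1+ preadipocytes for all but young Col5a3 and aged Col14a1. These orders are a description, without the share of all genes that had them. Across the 3 temperatures 8 members differed in Dpp4+ cells, 2 in Icam1+ cells (Col1a2 and Col14a1) and 6 in Cd142+ cells, where 7.5%, 6.28% and 2.91% of all genes did. At 3D cold against TN, 8, 3 and 6 members were lower, beside 4.01%, 3.67% and 1.44% of all genes. None was higher.

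In Dpp4+ fibroblasts Col3a1 had the largest difference of the 10, -1.28 ± 0.12 on the log2 scale at 3D cold (adjusted p = 0.000289), as the levels given above show: 10624 CPM at TN and 5046 at 3D cold in young, 3257 and 1165 in aged libraries. Col5a3 (-1.01 ± 0.10) and Col1a1 (-0.996 ± 0.118) followed, both with 3D cold the lowest of the temperatures at each age. Col6a1 had -0.31 ± 0.09 (adjusted p = 0.0681) and Col14a1 -0.22 ± 0.08 (adjusted p = 0.104). In Cd142+ fibroblasts Col3a1 fell by 1.15 ± 0.15, Col1a1 by 0.87 ± 0.14 and Col6a2 by 0.76 ± 0.13 at 3D cold. In Icam1+ preadipocytes Col3a1 (-0.74 ± 0.17), Col1a2 (-0.69 ± 0.15) and Col1a1 (-0.57 ± 0.15) passed, while Col6a1 had -0.09 ± 0.12 (adjusted p = 0.682).

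At 14D cold against TN no member passed in edgeR's test in any of the 3 classes, where 4.69%, 2.32% and 0.774% of all genes did, and members' medians were -0.19, -0.07 and -0.10. By age, the members' medians for this difference were 0.0063 in young and -0.38 in aged Dpp4+, 0.13 and -0.41 in Cd142+, and -0.11 and -0.03 in Icam1+ cells, each from 1 library per temperature. Set directly against 3D cold, a contrast added after the values were seen, 14D cold was higher for 7 members in Dpp4+ fibroblasts, 1 in Icam1+ preadipocytes (Col14a1) and 5 in Cd142+ fibroblasts, beside 0.825%, 0.582% and 0.621% of all genes. For Col3a1 the 14D cold level exceeded the 3D cold level by 0.99 ± 0.12 in Dpp4+ and 0.93 ± 0.15 in Cd142+ fibroblasts on the log2 scale. Within each age, all 10 members were lower at 3D cold than at TN and higher at 14D cold than at 3D cold in Dpp4+ and in Cd142+ fibroblasts. As the members share a pattern over the libraries, they are not 10 separate observations of this order. How many of all genes had it is not given here. Each temperature rests on 2 libraries. Without the aged 3D cold library 4 members differed with temperature in Dpp4+ and 2 in Cd142+ fibroblasts, and without the young TN library 10 did in Cd142+ fibroblasts. In Icam1+ preadipocytes the count was 1 without the young TN, aged TN, aged 3D cold or aged 14D cold library and 4 without young 3D cold.

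**Figure D5:**
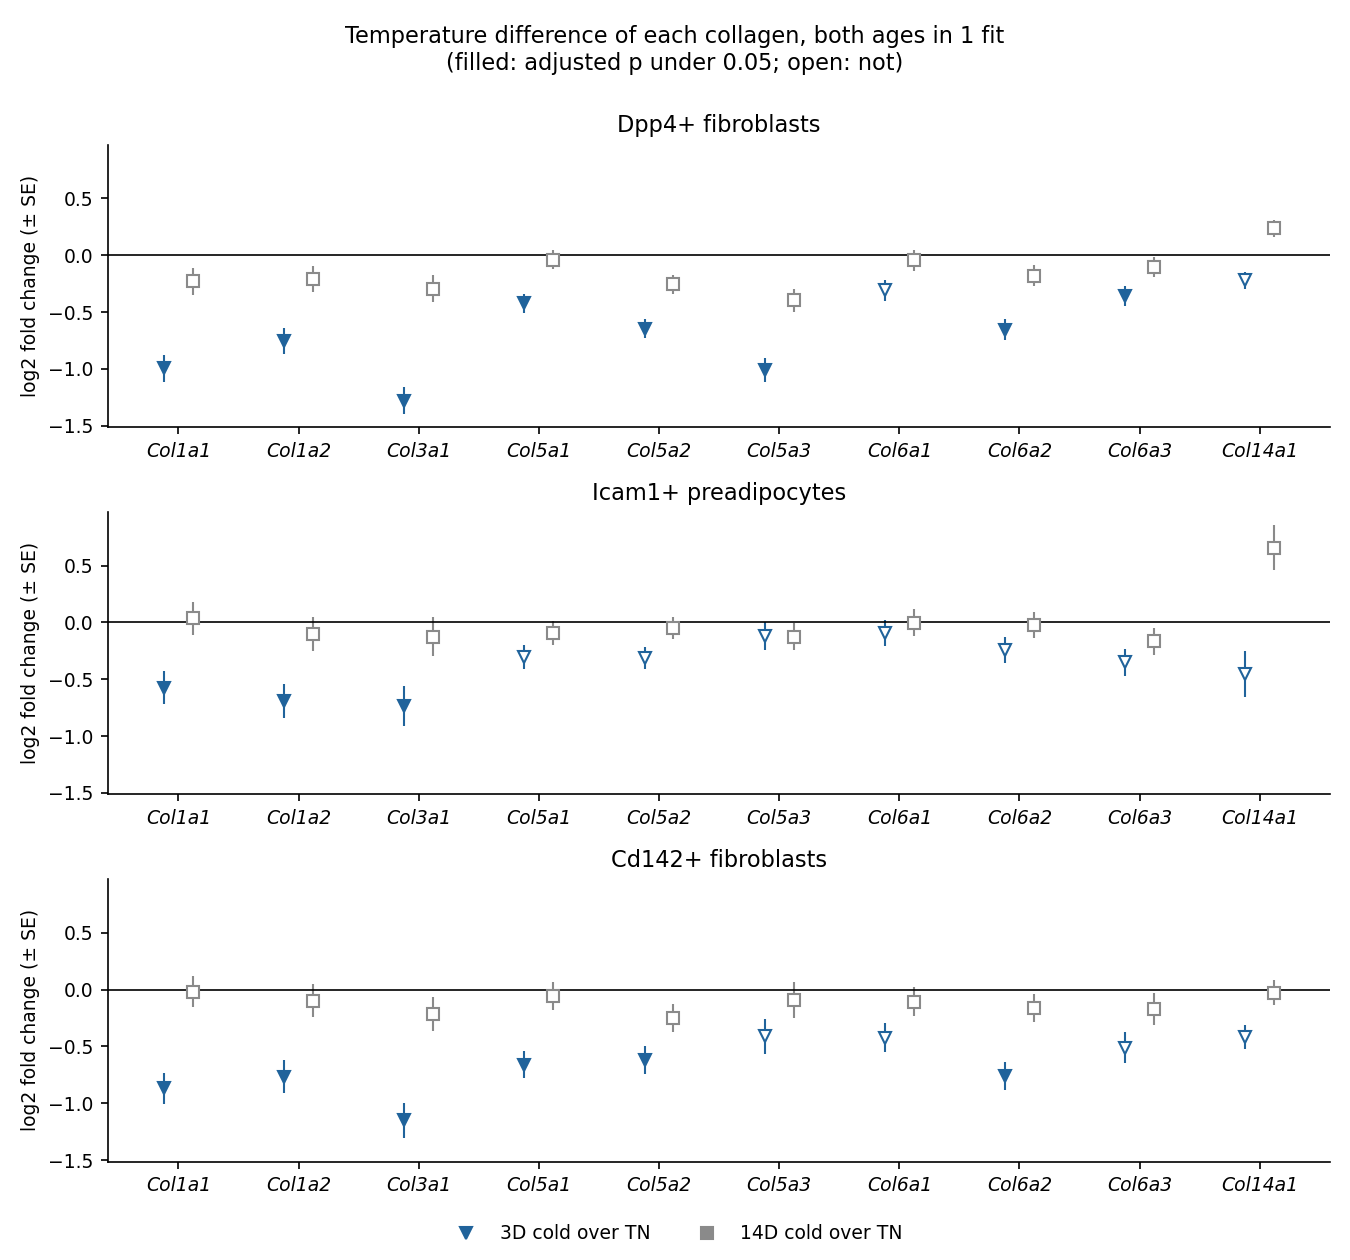
Log2 fold change of 3D cold (triangles) and 14D cold (squares) libraries over TN for each collagen in 3 ASPC classes, both ages in 1 fit, with standard errors from edgeR's quasi-likelihood fit. Filled points passed an adjusted p of 0.05. All triangles lie below 0 and all squares are open.

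The response to cold was set against age by an interaction term, with 3D and 14D cold together against TN. No member differed in any class by edgeR's quasi-likelihood test, and 0% of all genes passed. At an unadjusted p under 0.05 in edgeR's test there were 349, 389 and 272 genes and 0, 0 and 1 members (Col5a3 in Cd142+ fibroblasts, -0.85 ± 0.27, adjusted p = 1.00), and DESeq2 called 0, 4 and 0 genes, none of them a member. With 3D and 14D cold taken as samples of 1 condition, the difference between these times counted as spread. For Col3a1 in Dpp4+ fibroblasts the SE was 0.67, where 14D cold exceeded 3D cold by 0.99 ± 0.12 in the temperature fit. Differences in Dpp4+ fibroblasts lay between -0.41 and -0.10 with standard errors of 0.23 to 0.67. A difference of that size was not detectable with this fit, which leaves the question undecided.

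Ratios between chains were compared for 15 pairs of a ratio and a class, of which 11 overlapped between the ages and 4 did not. The ratio of Col1a1 to Col1a2 transcripts in Dpp4+ fibroblasts was 0.615, 0.559 and 0.599 in young and 0.425, 0.333 and 0.425 in aged libraries, without overlap. In Cd142+ fibroblasts it was 0.701, 0.657 and 0.686 against 0.471, 0.435 and 0.538, again without overlap, and in Icam1+ preadipocytes 0.542, 0.574 and 0.537 against 0.448, 0.496 and 0.544, with overlap. Col6a3 to Col6a1 in Dpp4+ fibroblasts (0.561, 0.521 and 0.542 against 0.477, 0.479 and 0.454) and Col5a1 to Col5a2 in Icam1+ preadipocytes (0.876, 0.939 and 0.858 against 0.815, 0.769 and 0.789) did not overlap either. Each of these 4 had an exact two-sided permutation p of 0.1, the smallest possible, and 0.375 after adjustment over 15 ratios. Col6a1 to Col6a2 overlapped in all 3 classes, with log2 differences of 0.03, 0.08 and 0.10 in Dpp4+, Icam1+ and Cd142+ cells. The ratio of Col3a1 to Col1a1 overlapped between ages in all 3 classes, and was 3.05 to 3.90 in Icam1+ preadipocytes and 1.36 to 1.70 in Dpp4+ fibroblasts.

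Genes that act on collagens were counted from lists. Among all genes, 9.38%, 8.15% and 5.83% were called higher in aged Dpp4+, Icam1+ and Cd142+ cells, beside the shares called lower given above. Of genes for procollagen folding and secretion, 13 of 17 tested were lower in aged Dpp4+ fibroblasts, 9 of 18 in Icam1+ preadipocytes and 10 of 15 in Cd142+ fibroblasts, and none was higher, with median log2 fold changes of -0.45, -0.24 and -0.46. Serpinh1, the collagen chaperone HSP47, had 1591, 1117 and 1748 CPM in young and 974, 714 and 975 CPM in aged Dpp4+ fibroblasts (-0.73 ± 0.07, adjusted p = 4.30e-05). P4ha2, a prolyl hydroxylase subunit, changed by -0.56 ± 0.05 there. At 3D cold against TN, 3 of 17, 4 of 18 and 2 of 15 genes of this list were lower, Serpinh1 in all 3 classes, and none was higher. Of genes for propeptide cleavage and cross-linking, 7 of 11, 6 of 12 and 7 of 11 were lower, and 1 was higher, Lox in Icam1+ preadipocytes. Lox, which oxidises lysines for cross-links, had 125, 145 and 108 CPM in young and 59.8, 71.3 and 57.0 CPM in aged Dpp4+ fibroblasts (-1.01 ± 0.06, adjusted p = 1.12e-06). In Icam1+ preadipocytes it had 428, 449 and 330 CPM in young and 615, 572 and 564 CPM in aged libraries (0.55 ± 0.09, adjusted p = 0.00395). Adamts2, a procollagen N-proteinase, changed by -0.92 ± 0.06 in Dpp4+ fibroblasts and -0.35 ± 0.07 in Icam1+ preadipocytes.

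Genes for collagen degradation moved in both directions. Of 8 tested, aged Dpp4+ fibroblasts had 4 that were higher (Ctsk, Timp3, Mmp14 and Mmp3) and 2 lower (Fap and Mmp2), Icam1+ cells 2 and 1, and Cd142+ cells 4 and 3. Timp3, an inhibitor of matrix metalloproteinases, rose by 0.21 ± 0.06, 0.98 ± 0.10 and 0.70 ± 0.09 on the log2 scale in these classes, and Fap, a serine protease of fibroblasts, changed by -0.62 ± 0.06, -0.30 ± 0.06 and -0.45 ± 0.12. Of collagen receptors, 1 was higher in each class and 3 of 11, 2 of 11 and 1 of 10 were lower in the 3 classes, among them Mrc2, an endocytic receptor for collagen fragments (-0.62 ± 0.08, -0.30 ± 0.07 and -0.43 ± 0.10). Itga2, a collagen-binding integrin subunit, changed by -0.67 ± 0.09 in Dpp4+ fibroblasts and by -0.89 ± 0.26 in Icam1+ preadipocytes, where it had 0.603 to 1.62 CPM.

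Among fibril-binding proteins, 4 of 9, 3 of 10 and 6 of 10 were lower and 0, 2 and 2 higher in aged cells. Postn (periostin) had 749, 301 and 559 CPM in young and 68.1, 24.8 and 42.6 CPM in aged Dpp4+ fibroblasts (-3.59 ± 0.07, adjusted p = 1.08e-09), and Sparc, a collagen-binding matrix protein, changed by -1.76 ± 0.09 there, by -0.51 ± 0.13 among Icam1+ cells and by -1.72 ± 0.11 among Cd142+ cells. Genes of TGF-beta signalling, a pathway that raises collagen transcription, were mixed: 3 higher and 4 lower, 5 higher and 1 lower, and 2 higher and 2 lower of 10. Tgfb2, a ligand, rose by 0.55 ± 0.05 in Dpp4+ and 0.85 ± 0.09 in Cd142+ fibroblasts. Ctgf, a target, changed by -1.89 ± 0.14 and -0.90 ± 0.19 in these classes and by 0.98 ± 0.18 in Icam1+ preadipocytes, where its level was 1.53 to 6.44 CPM.

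Other collagens did not all follow the set. Col6a6, a further collagen VI chain, changed by -1.14 ± 0.08 in Dpp4+ fibroblasts and -0.73 ± 0.11 in Icam1+ preadipocytes, while Col6a5 was higher in aged cells of all 3 classes, by 0.96 ± 0.19, 1.54 ± 0.16 and 1.16 ± 0.20, at 1.12 to 57.3 CPM. Among FACIT collagens, which sit on fibrils, 2 of 3, 1 of 4 and 1 of 2 were lower and none was higher, with Col16a1 at -0.73 ± 0.07, -0.48 ± 0.07 and -0.74 ± 0.11 and Col12a1 at -0.88 ± 0.07 in Dpp4+ fibroblasts. Of network, multiplexin and transmembrane collagens 5 of 11, 2 of 11 and 4 of 10 were lower and 0, 2 and 1 higher. Col4a5, a basement membrane chain, changed by -1.79 ± 0.07, -0.67 ± 0.09 and -1.04 ± 0.11, and Col15a1, a multiplexin, by -0.52 ± 0.10 in Icam1+ preadipocytes and -1.37 ± 0.14 in Cd142+ fibroblasts. Of the other fibrillar collagens Col27a1 was the one that passed, at -0.36 ± 0.07 in Icam1+ preadipocytes and -0.70 ± 0.19 in Cd142+ fibroblasts.

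The members' patterns over the 18 sums of the 3 ASPC classes and 6 libraries, centred within each class, were alike for 9 of the 10. The Pearson r of a member with the summed set was 0.91 to 1.00 across these sums, and 0.64 for Col14a1. The sums share libraries and include the members themselves, so these values are a description. Among 5495 other genes with at least 20 CPM on average, the pattern most like that of the set belonged to Sparc (r = 0.99), C1qtnf6 (0.99), the lysyl oxidase family gene Loxl2 (0.98), Ppic (0.97) and Fkbp9 (0.97).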

How the data were processed

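The authors aligned 3′ single-cell libraries to mm10 with Cell Ranger 3.1.0 and deposited UMI counts per gene and barcode for 6 libraries. Barcodes with over 200 genes and within 3 median absolute deviations of their library were kept. Counts were scaled to 10000 per cell and logged, and 6000 variable genes without collagens and markers gave 15 principal components, 20 neighbours and Leiden clusters at resolution 0.5 (leidenalg 0.10.2, scikit-learn 1.9.0). A cluster was named where at least 3 markers and 50% of a list were detected. Clusters with 50% or more cells of high doublet score were left unnamed, and so were, by a rule chosen after the data were seen, those with over 50% of cells from 1 library; remaining high-score cells were kept, with an alternative without them.

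Counts were summed per library and class. edgeR 4.0.16 (quasi-likelihood, TMM) in R 4.3.3 tested age with temperature as a term (2 residual degrees of freedom), temperature with age as a term, age by cold, and age by class with a library block (4 residual degrees of freedom), with Benjamini-Hochberg adjustment over all genes and a threshold of 0.05. Shares and ratios were compared by exact permutation (scipy 1.17.1). Cells were thinned to 2000 UMIs for shares and per-cell values. Alternatives were DESeq2 1.42.0, RLE factors, UMI totals, no filter, no temperature term, each library left out, thinning, other cell limits, resolutions 0.3 and 1, and cells gated singly on 2 marker UMIs. On simulated counts with 200 genes changed by 1 on the log2 scale, the age fit recovered 100% in Dpp4+ fibroblasts (12910 genes; 8.68% of calls false), 99.5% in Icam1+ preadipocytes (12931 genes; 0.5%), 96.5% in Cd142+ fibroblasts (10718 genes; 5.85%), 84% in endothelial cells (10285 genes; 8.70%) and 74% in SMC/pericytes (9435 genes; 9.20%). Simulated counts were drawn gene by gene from mean levels and fitted dispersions, without temperature differences or shifts shared by genes. The shares hold for such counts and may differ in the real libraries.

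All 10 members were named, with the 2 genes of smallest adjusted p for age from each list and the 5 genes of most similar pattern (log2(CPM + 1), at least 20 CPM). The members and lists were chosen with earlier results of these data known. Binomial intervals are exact.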

Additional observations from a re-analysis of the deposited data

Results flagged for a closer look

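The age change differed between classes of the same libraries for 19 pairs of a gene and 2 classes, by the interaction term of edgeR's quasi-likelihood fit on the log2 scale. Between Dpp4+ fibroblasts and Icam1+ preadipocytes the difference (Icam1+ minus Dpp4+) was 1.40 for Col3a1, 1.20 for Col1a1, 0.97 for Col5a2, 0.83 for Col6a3 and for Col6a1, 0.78 for Col6a2, 0.77 for Col5a1, 0.76 for Col1a2 and -1.17 for Col14a1. Between Icam1+ preadipocytes and Cd142+ fibroblasts (Cd142+ minus Icam1+) it was -1.30 for Col3a1, -1.16 for Col1a1, -0.82 for Col6a2, -0.81 for Col1a2, -0.80 for Col6a1, -0.78 for Col5a2, -0.72 for Col5a1, -0.64 for Col5a3 and -0.55 for Col6a3. Between Dpp4+ and Cd142+ fibroblasts it was -0.67 for Col14a1.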

How the results depend on the processing

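With 1 library per age and temperature, fits had few residual degrees of freedom. In the age fits a library left alone at its temperature was taken up by the temperature term, so the ages were compared at the remaining temperatures only. In the temperature fits such a library was assumed to vary like the others. No paired analysis was possible because each group held 1 library, so that replicate numbers pair nothing; the temperature term already compared the ages at each temperature. Age by cold could not be fitted without either TN library. Of the single-gene values under the alternatives, 1800 kept direction and side of the threshold, 205 no longer passed, 31 newly passed and 4 reversed: Col5a3 in endothelial cells gated singly (0.13), Col14a1 in endothelial cells without high doublet scores (0.20), Col5a3 in SMC/pericytes without aged 14D cold (0.00070, against -0.53 without young 3D cold, the range over libraries left out) and Ctgf in Cd142+ fibroblasts at resolution 1 (0.055). The cause was not tested.

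Counts in this section are given without the share of all genes called under the same setting. Members called with age numbered 0 without the temperature term and 2 at resolution 1 in Icam1+ preadipocytes. At resolution 1 a cluster of 7590 cells with leading genes like those of cluster 1 was left out of this class. In endothelial cells they numbered 4 after thinning, 4 without high doublet scores and 2 with single-cell gates, and in SMC/pericytes 8 with no filter, 0 without the temperature term and 2 at resolution 0.3. Members called with temperature numbered 1 with RLE factors, 4 with no filter and 4 after thinning in Icam1+ preadipocytes, and 10 with no filter in Cd142+ fibroblasts. Age by cold called 1 member with no filter in Icam1+ preadipocytes. With single-cell gates the age change differed for 5 members between Dpp4+ and Cd142+ fibroblasts and for 3 between Icam1+ and Cd142+ cells. The summed share of UMIs held by the 10 members, aged against young, in endothelial cells differed by -0.0757 thinned, -0.0285 without high doublet scores and -0.241 gated (percentage points). In Cd142+ fibroblasts the log2 age difference was -0.35 for Col1a1 to Col1a2 and 0.27 for Col3a1 to Col1a1 when gated, and 0.15 for Col6a3 to Col6a1 when thinned.

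Leaving out each library in turn gave 9 to 10 members with age for Dpp4+ cells, 3 to 4 for Icam1+ cells, 5 to 9 in endothelial cells and 1 to 8 in SMC/pericytes. For temperature the counts were 4 to 10, 1 to 4 and 2 to 10 in Dpp4+, Icam1+ and Cd142+ cells, for age by cold 0 to 1 in Icam1+ preadipocytes, and for age by class 5 to 10 between Dpp4+ and Icam1+ and 5 to 9 between Icam1+ and Cd142+ cells. With UMI totals in place of TMM factors, the share of age calls that were higher in aged endothelial cells moved from 29.2% to 18.5%.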
